A study of Rattus norvegicus with 25 samples.

Results

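Transcripts of 7 acetylcholine receptor genes and of the acetylcholine-degrading enzyme were described in the basolateral amygdala (BLA) and the dentate gyrus (DG) of rats that had or had not been through a severe stressor. The 8 genes were taken by name, ignoring case, from both deposited tables: Chrm1, CHRM2, Chrm3 and Chrm4 (muscarinic receptors), Chrna4, Chrna7 and Chrnb2 (nicotinic receptor subunits) and Ache (acetylcholinesterase). They were 8 of 25360 gene names in each region, and identifiers that share a name were summed, which joined 2 gene models for CHRM2 and left a single model for each of the others. All 8 passed the filter on low counts in both regions, where the test ran on 14953 BLA genes and 13850 DG genes.

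The animals were adult male wild-type Sprague-Dawley rats. Stress-exposed rats had been immobilized for 3 h in the presence of fox urine, a predator scent, and controls, labelled as undisturbed, had stayed in the home cage with a cage change. All animals went through behavioral profiling, and tissue punches of the left BLA and left dorsal DG were taken on day 9 after stress for bulk poly-A RNA-seq. The stress-low group held stress-exposed rats with a composite anxiety-like score of 0 to 2, the stress-high group held those with a score of 13 to 15, and control scores ran from 0 to 6. There were 13 BLA libraries (7 control, 3 stress-low, 3 stress-high) and 12 DG libraries (6, 3 and 3) from 14 animals. Of these, 11 animals gave a library in both regions, so the regions are not independent. Each library is 1 animal, and the stress groups hold 3 animals each.

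In each region, 1 control library stood apart on the first principal component and was left out, animal 2 in the BLA and animal 35 in the DG, which left 6 and 5 controls. Their values are given separately. All stress-high animals carry numbers of up to 20 and all stress-low animals higher ones, so that a difference that goes with animal number cannot be told apart from one between the stress groups. The BLA library of animal 35 is named as a control while its treatment field reads as stress, and it was taken as a control. Total expected counts of the libraries used ran from 12709493 to 22801247 in the BLA and from 11656439 to 19477932 in the DG. Every region marker list was detected in its own region (summed TPM of the 4 BLA excitatory markers 942 to 1379 in the BLA, of the 5 granule cell markers 633 to 977 in the DG). Neither sum was particular to its region: the BLA list summed to 1710 to 2221 in the DG, and the granule cell list to 381 to 574 in the BLA. Most of each of these sums came from 1 gene, Slc17a7 in the DG (mean 1811 TPM) and C1ql3 in the BLA (492 TPM). Of the other granule cell markers, Prox1 averaged 75.6 TPM in the DG and 2.52 in the BLA, C1ql2 344 and 2.78, Dsp 5.91 and 0.205, and Tdo2 0.0682 and 0.0108. Of the other BLA markers, only Tbr1 was higher in the BLA (36.4 against 27.8 TPM).

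Acetylcholine reaches the amygdala and hippocampus mainly from basal forebrain neurons, so its receptors are made by local cells while most of its synthesis lies elsewhere. Muscarinic receptors are G protein-coupled. Those encoded by Chrm1 and Chrm3 couple to Gq and raise neuronal excitability, and those encoded by CHRM2 and Chrm4 couple to Gi and often act on axon terminals. Nicotinic receptors are ion channels of 5 subunits. Chrna4 and Chrnb2 encode the subunits of the main high-affinity brain receptor, and Chrna7 encodes a subunit that forms channels by itself. Ache encodes the enzyme that clears acetylcholine from the synapse. In bulk tissue, fewer cells of a type and less RNA per cell cannot be told apart.

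Chrna4 and Chrnb2 encode partners in 1 channel, yet their transcripts took different places in the 2 regions, as given below. Their promoter windows are shown for this reason, with the GC box GGGCGG in capitals on either strand (CCGCCC on the strand shown). The windows run from 250 bases before to 50 bases after the gene start in RefSeq, assembly GRCr8, and are written 5′ to 3′ in the direction of the gene. The Chrna4 window lies at chr3:188534477-188534776 and the Chrnb2 window at chr2:177487257-177487556, both on the minus strand.
Chrna4: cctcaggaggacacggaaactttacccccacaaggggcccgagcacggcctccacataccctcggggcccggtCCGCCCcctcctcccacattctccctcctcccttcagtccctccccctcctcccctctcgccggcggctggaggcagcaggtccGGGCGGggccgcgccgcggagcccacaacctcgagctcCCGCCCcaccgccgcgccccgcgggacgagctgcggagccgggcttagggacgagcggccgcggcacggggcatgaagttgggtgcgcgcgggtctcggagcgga
Chrnb2: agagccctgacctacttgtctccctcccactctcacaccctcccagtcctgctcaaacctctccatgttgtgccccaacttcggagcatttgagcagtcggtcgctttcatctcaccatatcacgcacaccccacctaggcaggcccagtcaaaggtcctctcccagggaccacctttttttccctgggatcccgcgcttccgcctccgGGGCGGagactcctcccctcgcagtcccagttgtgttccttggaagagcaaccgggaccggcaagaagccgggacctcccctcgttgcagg
The Chrna4 window held 3 GC boxes (1 as GGGCGG and 2 as CCGCCC) and 35 CG dinucleotides, and the Chrnb2 window 1 GC box and 14 CG dinucleotides. At least 1 GC box stood in 33.1% of all 33469 promoter windows of this length, and the median window held 7 CG dinucleotides. High counts were not particular to Chrna4: the Chrna7 window held 2 GC boxes and 37 CG dinucleotides, and the Chrm1 window 0 and 7. These counts describe the sequence only, since no measurement of the promoters was made.

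Levels are given in TPM, a unit corrected for gene length and library size, so that genes can be compared within a library. Chrm1 was the most abundant of the 8 genes in both regions, at 124 ± 11.5 TPM in BLA libraries (SD, n = 12) and 184 ± 11.3 TPM in DG libraries (SD, n = 11). In every library it stood above the next gene, and the ranges of the 2 genes did not overlap. It was higher than 92.1% of the BLA genes and 93.5% of the DG genes that averaged 1 TPM or more.

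Below Chrm1 the order of the BLA was Ache (47.9 ± 7.20 TPM), Chrnb2 (40.3 ± 4.18), Chrna4 (30.1 ± 3.86), Chrm4 (23.7 ± 2.76), Chrna7 (23.6 ± 2.51), Chrm3 (14.7 ± 3.51) and CHRM2 (11.5 ± 2.01; SD, n = 12 for each). The ranges of all neighbours in this part of the order overlapped. Chrm4 was above Chrna7 in 6 of 12 libraries, so this pair had no order, and Chrm3 was above CHRM2 in 10 of 12. The remaining neighbours kept their order in all 12 libraries.

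The order of the DG was different. Chrm3 followed Chrm1 with 49.0 ± 6.39 TPM, then came Chrnb2 (39.2 ± 3.33), Ache (35.1 ± 4.97), Chrna7 (26.9 ± 2.13), Chrm4 (12.9 ± 2.20), CHRM2 (6.20 ± 1.18) and Chrna4 (2.88 ± 0.411; SD, n = 11 for each). Chrna7, Chrm4 and CHRM2 had ranges that did not overlap with the next gene in the order. Chrnb2 was above Ache in 8 of 11 libraries, so that pair was not separated beyond its spread.

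**Figure D1:**
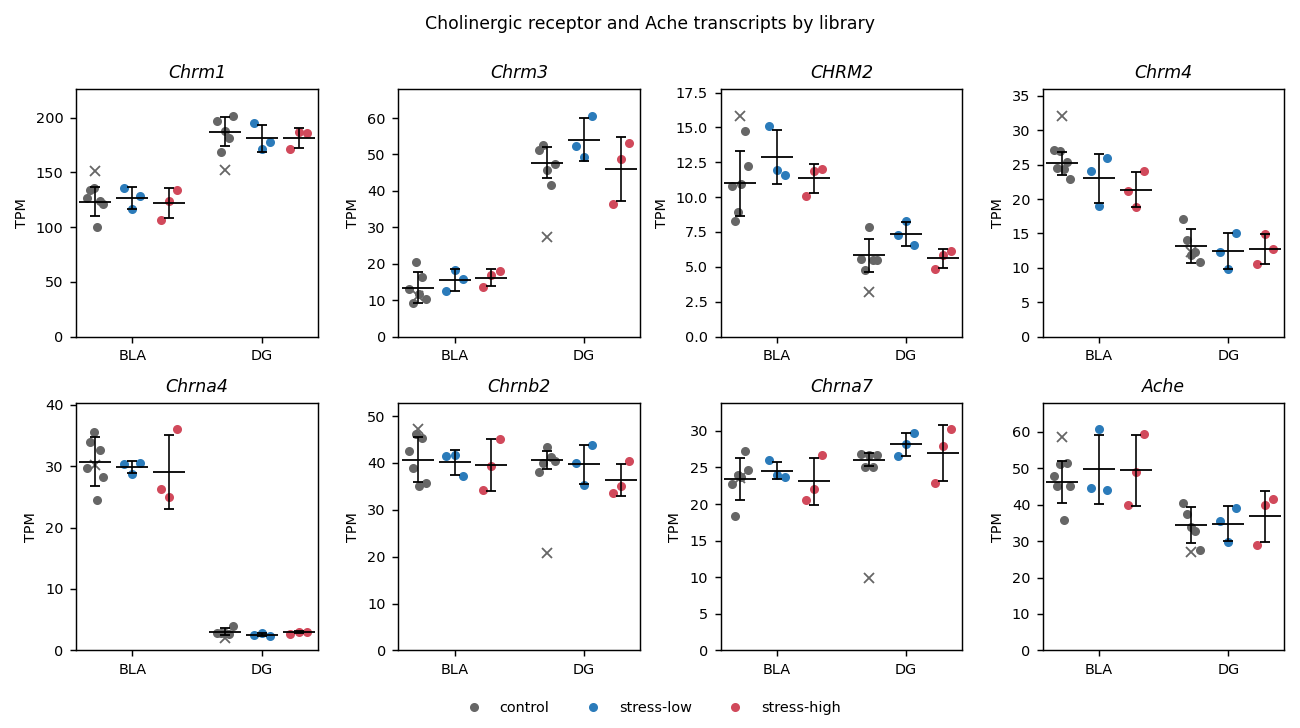
TPM of each gene (vertical axes, from 0) in the control, stress-low and stress-high libraries of the BLA and the DG. Points are libraries, bars are the mean ± SD of the libraries used, and crosses mark the control left out in each region. Chrna4 lies between 24.6 and 36.0 TPM in the BLA and between 2.37 and 3.98 TPM in the DG.

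The 9 animals with a used library in both regions allowed the regions to be set side by side within an animal. Region and library preparation cannot be told apart here, because the libraries of the regions were quantified with different effective lengths (Chrm1, for example, with 1333 bases in the BLA and 1109 to 1122 in the DG), and so no test was made. Chrna4 was 10.4 times higher in the BLA (mean log2 ratio 3.37, SD 0.26, 3.04 to 3.69 in single animals). A distance between regions at least this large was seen in 1.85% of 14465 genes. Chrm3 went the other way and was 3.49 times higher in the DG (mean log2 ratio of BLA over DG -1.80, SD 0.31). On the measure of means, 6.43% of genes lay at least as far apart as Chrm3.

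The Gi-coupled receptor genes were higher in the BLA in 9 of 9 animals, CHRM2 by a mean log2 ratio of 0.95 (SD 0.37) and Chrm4 by 0.91 (SD 0.24). Chrm1 was higher in the DG in all 9, with a mean log2 ratio of BLA over DG of -0.58 (SD 0.15), and Ache was higher in the BLA in all 9, with 0.40 (SD 0.23). Such distances are common, since on the measure of means 35.8% of genes lay at least as far apart as Chrm1 and 51.7% as far as Ache. Chrnb2 had a mean log2 ratio of 0.00 (0.00378, SD 0.17) and was higher in the BLA in 6 of 9 animals, and Chrna7 had -0.20 (SD 0.18).

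Chrna4 and Chrnb2, the partner subunits, therefore stood in different proportions. The ratio of Chrna4 to Chrnb2 TPM was 0.749 ± 0.0655 in the BLA (SD, n = 12, range 0.634 to 0.869) and 0.0739 ± 0.0123 in the DG (SD, n = 11, range 0.0541 to 0.0987). Within a region the groups overlapped. In the BLA the ratio was 0.757 ± 0.0655 in controls, 0.748 ± 0.0681 in stress-low and 0.733 ± 0.0872 in stress-high animals (SD, n = 6, 3 and 3). In the DG it was 0.0749 ± 0.014, 0.0655 ± 0.0124 and 0.0808 ± 0.00613 (SD, n = 5, 3 and 3).

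The makeup of the muscarinic transcripts also differed between the regions. Of the summed TPM of the 4 muscarinic genes, Chrm1 held 71.2 ± 2.09% in BLA and 73.0 ± 2.49% in DG libraries. The share of Chrm3 was 8.42 ± 1.81% in BLA and 19.4 ± 2.08% in DG libraries. The Gi-coupled genes made up the difference, Chrm4 with 13.7 ± 1.52% and 5.10 ± 0.745% and CHRM2 with 6.67 ± 1.13% and 2.46 ± 0.470% (SD, n = 12 and 11). Together the Gq-coupled pair held 75.9 to 82.1% of the muscarinic transcripts in the BLA libraries and 91.6 to 93.8% in the DG libraries.

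**Figure D2:**
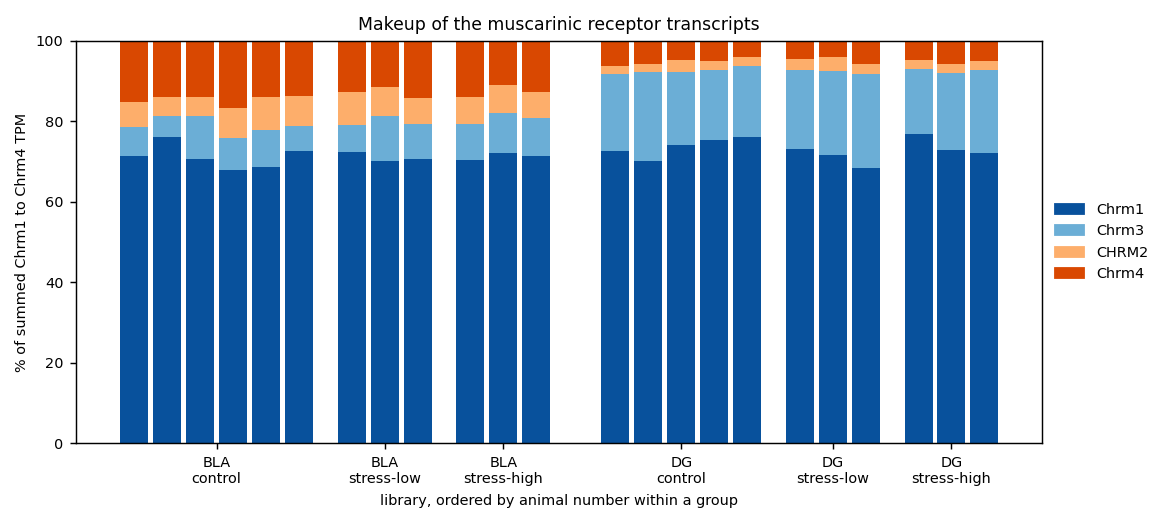
Share of Chrm1, Chrm3, CHRM2 and Chrm4 in their summed TPM (vertical axis, percent), 1 bar per library used, grouped by region and group. The Gq-coupled Chrm1 and Chrm3 (blue) hold 75.9 to 82.1% in the BLA and 91.6 to 93.8% in the DG, and the groups of a region overlap in this joint share.

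Stress-low and stress-high animals were compared to ask which transcripts go with low or high anxiety-like behavior after the same stressor, and each was compared with controls. Fold changes are on the log2 scale and read as the second group named minus the first, from edgeR's quasi-likelihood test on expected counts, with p-values adjusted over all genes tested by Benjamini and Hochberg. An adjusted p under 0.05 was reached by none of the 8 genes in the 6 comparisons. The background was the same, with 0% of all genes under that threshold in each comparison (0 of 14953 BLA genes, 0 of 13850 DG genes), and therefore the count does not set these genes apart. Values at an unadjusted p under 0.05 are given next as a description.

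In the BLA, fold changes of the 8 genes from stress-low to stress-high ran from -0.12 to 0.09, with none at an unadjusted p under 0.05, against 1.91% of all genes. From control to stress-low they ran from -0.16 to 0.18, again with none, against 2.69% of all genes. From control to stress-high they ran from -0.23 to 0.27, and 1 gene, Chrm4, was at an unadjusted p under 0.05, against 2.53% of all genes. The 95% interval lay within 0.5 of 0 for 6, 7 and 7 of the 8 genes in these comparisons. Chrm1 had intervals of -0.23 to 0.18, -0.16 to 0.19 and -0.19 to 0.16.

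Chrm4, the Gi-coupled receptor that is abundant in the striatum, had a lowest, median and highest value of 22.9, 24.9 and 27.1 TPM in the 6 BLA controls. The stress-low animals had 24.1, 19.0 and 26.0 TPM and the stress-high animals 21.1, 18.9 and 24.0 TPM. A single stress-high library reached into the control range, and 2 lay below it. The control to stress-high fold change was -0.23 (SE 0.11, unadjusted p = 0.0440, adjusted p = 1.0, edgeR), and the exact two-sided permutation test of TPM gave p = 0.0357, where the smallest p this design allows is 0.0119. Adjusted over the 48 permutation tests of the 8 genes in 6 comparisons, that exact test gave p = 0.987. The unadjusted p rose to 0.178 without stress-high animal 19 (fold change -0.17), and was above 0.05 without stress-high animal 20 or without any 1 of control animals 14, 17, 27 and 28. With control animal 2 put back the value was -0.26 (unadjusted p = 0.0239, edgeR), and without control animal 35, whose labels disagree, it was -0.25 (unadjusted p = 0.0354, edgeR).

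Striatal and central amygdala markers (6 of 7 found) bear on Chrm4, since a punch can reach neighbouring tissue. Their summed level ranged from 76.8 to 236 TPM in the BLA controls, 97.2 to 222 in stress-low and 97.4 to 118 in stress-high animals, with none of the 6 at 0. The median sum was 92.6 TPM in controls, 101 in stress-low and 107 in stress-high animals. The control left out, animal 2, had the highest sum (398.5 TPM) and the highest Chrm4 (32.1 TPM). This was not particular to the striatal list. Its meningeal fibroblast markers (73.0 TPM, at most 17.3 in the BLA libraries used) and CA1 and CA3 markers (414 TPM, at most 282) were also highest. Other lists, such as those of oligodendrocytes and microglia, lay within the range. The part of these markers in the Chrm4 values was not tested.

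Chrm3 had the widest relative spread of the 8 in the BLA, with a coefficient of variation of 23.9%. Its lowest, median and highest values were 9.11, 12.3 and 20.4 TPM in the 6 controls, and it had 12.5, 18.3 and 15.9 TPM in the stress-low and 13.6, 16.9 and 18.1 TPM in the stress-high animals. The control range covered both stress groups, so that a fold change of 0.27 from control to stress-high (SE 0.18, 95% interval -0.11 to 0.65) was within the spread. Ache was at 46.2 ± 5.73 TPM in controls, 49.7 ± 9.50 in stress-low and 49.5 ± 9.77 in stress-high animals (SD, n = 6, 3 and 3). Its largest BLA fold change was 0.10 (SE 0.10), from control to stress-high.

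The nicotinic subunit genes differed little between the groups of the BLA. Chrnb2 was at 40.7 ± 4.82, 40.1 ± 2.6 and 39.5 ± 5.47 TPM in control, stress-low and stress-high animals, Chrna4 at 30.8 ± 4.06, 29.9 ± 1.0 and 29.0 ± 6.05 TPM, and Chrna7 at 23.4 ± 2.90, 24.6 ± 1.22 and 23.1 ± 3.18 TPM (SD, n = 6, 3 and 3). Their 9 fold changes ran from -0.08 to 0.03, and the interval of Chrnb2 from control to stress-high was -0.19 to 0.11.

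**Figure D3:**
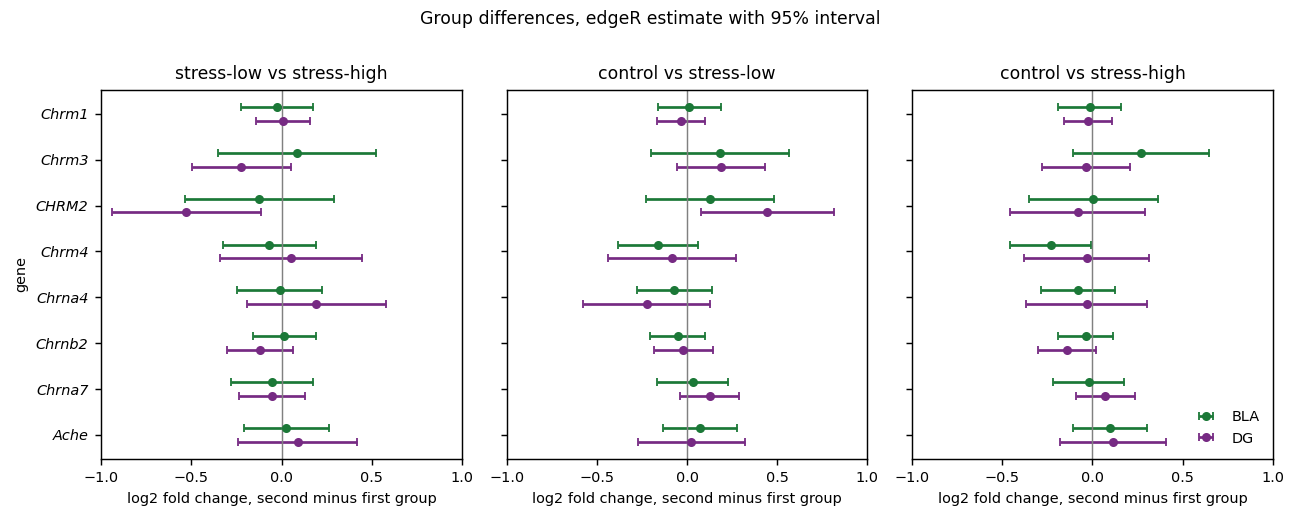
Log2 fold change of each gene with its 95% interval (horizontal axes, second minus first group named above each panel), from edgeR, for the BLA (green) and the DG (purple). The intervals that leave out 0 are those of CHRM2 in the DG from stress-low to stress-high (-0.94 to -0.11) and from control to stress-low (0.08 to 0.81), and of Chrm4 in the BLA from control to stress-high (-0.46 to -0.01).

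In the DG, CHRM2 was the 1 gene at an unadjusted p under 0.05 between stress-low and stress-high animals, against 3.16% of all genes, and from control to stress-low, against 7.00% of all genes. No gene of the 8 was there from control to stress-high, against 2.23% of all genes. The 8 fold changes ran from -0.53 to 0.19, from -0.22 to 0.45 and from -0.14 to 0.11 in these 3 comparisons, and 6, 6 and 8 of the 8 intervals lay within 0.5 of 0.

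CHRM2 encodes the Gi-coupled receptor found on many interneuron and cholinergic terminals. It had 7.31, 8.28 and 6.55 TPM in the stress-low animals and 4.87, 5.84 and 6.16 TPM in the stress-high animals. The controls had 5.53, 4.79, 7.88, 5.48 and 5.51 TPM. All stress-low values stood above all stress-high values, and the control of animal 17 reached into the stress-low range while the other 4 lay below it. The expected counts behind these values were low, 96.0 to 133 in stress-low, 86.0 to 123 in stress-high and 67.0 to 128 in control libraries.

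The fold change of CHRM2 was -0.53 from stress-low to stress-high (SE 0.19, unadjusted p = 0.0159, adjusted p = 0.999, edgeR), and the exact two-sided permutation p was 0.10, the smallest that 3 against 3 allows. From control to stress-low it was 0.45 (SE 0.17, unadjusted p = 0.0212, adjusted p = 0.709, edgeR), with an exact permutation p of 0.107. The control to stress-low value was no longer under 0.05 without control animal 14 (0.35, unadjusted p = 0.0540, edgeR) and without stress-low animal 33 (0.43, unadjusted p = 0.0575, edgeR). With animal number above 20 as a covariate, the stress-low to stress-high value was -0.44 (unadjusted p = 0.161, edgeR). This covariate does not vary within a stress group, so the controls alone set its effect, animals 2, 14 and 17 against 28 and 32. The value therefore cannot separate animal number from stress group. With control animal 35 put back, the values were -0.53 (unadjusted p = 0.0296, edgeR) and, from control, 0.52 (unadjusted p = 0.0148, edgeR). Both comparisons share the stress-low libraries.

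Read depth went with the groups here. Total expected counts were 11656439 to 15547038 in the stress-low and 16201792 to 19477932 in the stress-high DG libraries, without overlap. Interneuron markers (6 of 6 found, none at 0) summed to 529 to 615 TPM in stress-low, 536 to 716 TPM in stress-high and 575 to 720 TPM in control DG libraries. Their part in the CHRM2 values was not tested.

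Groups whose TPM ranges did not overlap were counted over all genes as well. Of the 8 genes, CHRM2 in the DG between stress-low and stress-high was the 1 case, against 8.64% of all genes in that comparison. The other 5 comparisons had none of the 8, against 3.70% and 1.47% of all genes in the DG from control to stress-low and to stress-high. In the BLA the shares of all genes were 5.78% between stress-low and stress-high, 1.34% from control to stress-low and 0.910% from control to stress-high.

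CHRM2 is the only 1 of the 8 names with 2 gene models, and the quantification divided its reads between them. The first model (Chrm2, ENSRNOG00000011928, 2449 bases) and the second (CHRM2, ENSRNOG00000046972, 1401 bases) are uncertain taken singly. The second model held 0 to 19.0% of the joint expected count in the BLA libraries used and was at 0 in 4 of 12. In the DG it held 13.2 to 62.8%. With the first model alone, the DG fold change from control to stress-low was 0.60 (unadjusted p = 0.0754, edgeR), where the sum of both gave 0.45. Between the DG stress groups, the first model had 79.8 to 99.3 expected counts in stress-low and 55.5 to 75.2 in stress-high libraries. The second had 12.7 to 48.2 and 30.5 to 51.3, which overlapped. These counts are not corrected for read depth. Because TPM divides each model by its own length, a library with more reads on the shorter model has a higher summed TPM for the same count.

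**Figure D4:**
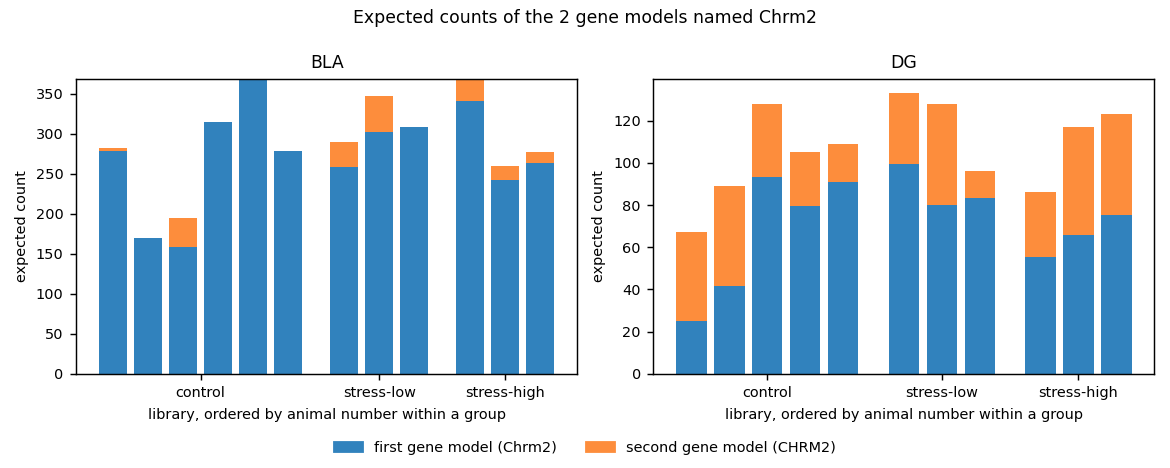
Expected counts (vertical axes, from 0) of the first (blue) and second (orange) gene model of CHRM2, stacked, 1 bar per library used. Joint counts are 170 to 368 in the BLA and 67.0 to 133 in the DG, and the second model holds up to 62.8% in the DG.

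Chrm3 followed the same order of group means in the DG, without passing a test. It had 52.4, 49.2 and 60.7 TPM in stress-low, 36.3, 48.7 and 53.1 TPM in stress-high and 51.2, 52.6, 45.9, 41.7 and 47.3 TPM in control animals. The ranges of the 3 groups overlapped, and the fold change from stress-low to stress-high was -0.22 (SE 0.13, 95% interval -0.50 to 0.05). Chrm1 was at 187 ± 13.3, 181 ± 12.4 and 181 ± 8.91 TPM and Chrm4 at 13.2 ± 2.46, 12.4 ± 2.6 and 12.7 ± 2.17 TPM in control, stress-low and stress-high animals (SD, n = 5, 3 and 3). All intervals of Chrm1 in the DG lay between -0.17 and 0.16.

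Among the nicotinic genes of the DG, Chrnb2 was at 40.6 ± 1.96, 39.7 ± 4.23 and 36.4 ± 3.51 TPM in control, stress-low and stress-high animals (SD, n = 5, 3 and 3). From control to stress-high its fold change was -0.14 (SE 0.08, 95% interval -0.30 to 0.02). Chrna7 was at 26.1 ± 0.932, 28.2 ± 1.55 and 27.0 ± 3.79 TPM. Chrna4, with 37.0 to 86.0 expected counts per library, was at 3.03 ± 0.532, 2.56 ± 0.206 and 2.93 ± 0.163 TPM. Ache was at 34.4 ± 4.91, 34.8 ± 4.72 and 36.8 ± 6.90 TPM, and all of its DG intervals held 0.

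Whether a fold change differed between the regions was tested in 1 fit of both. That fit had no term for the animal, although 9 animals gave a used library in both regions. Its p-values and SE treat those libraries as independent. A fit with animals as random blocks was also run (limma, correlation within an animal 0.144), and its values are not given here. None of the 8 genes reached an unadjusted p of 0.05 in any of these 3 tests, against 1.90%, 3.13% and 1.76% of 15152 genes for stress-low versus stress-high, control versus stress-low and control versus stress-high. No gene of the 15152 had an adjusted p under 0.05 (0%, edgeR). For CHRM2, the BLA minus DG difference between stress-low and stress-high was 0.39 (SE 0.29, adjusted p = 1.0, edgeR), with -0.12 in BLA and -0.53 in DG libraries. The fold change of CHRM2 in the DG is thus not shown to differ from that in the BLA. Its TPM was higher in the BLA in 9 of 9 animals, a difference that was not tested and cannot be told apart from one of library preparation.

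The control libraries left out differed in opposite ways. In the DG library of animal 35, 7 of the 8 genes lay below all other DG libraries: Chrna7 had 9.90 TPM (others 22.8 to 30.2), Chrnb2 20.7 (33.6 to 43.8), Chrm3 27.4 (36.3 to 60.7) and CHRM2 3.21 (4.79 to 8.28), with Chrm1, Chrna4 and Ache also lowest and Chrm4 within the range. In the BLA library of animal 2, Chrm1, CHRM2, Chrm4 and Chrnb2 lay above all others and the remaining 4 within the range. Both libraries had been left out for their place on the first principal component of these same data. Animal 35 stood at 53.9 in the DG (others at most 2.13) and animal 2 at 44.5 in the BLA (others at most 12.8). Extreme values can follow from that choice, and no share over all genes is given beside them. The counts therefore do not set the 8 genes apart.

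The wider cholinergic system was followed in 4 lists of 42 genes, of which 32 passed the filter for BLA and 30 for DG libraries. No list gene reached an adjusted p of 0.05. For stress-low versus stress-high, control versus stress-low and control versus stress-high, an unadjusted p under 0.05 was seen for 0, 2 and 1 of the 32 BLA genes, against 1.91%, 2.69% and 2.53% of all genes. It was seen for 2, 2 and 1 of the 30 DG genes, against 3.16%, 7.00% and 2.23% of all genes. The median fold change of the 32 BLA genes lay between 0.00 and 0.04 and that of the 30 DG genes between -0.04 and 0.00 (-0.00314), where the median of all genes lay at 0.00 in each region.

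Of the 14 other receptor genes, 5 averaged 1 TPM or more in the BLA, as did 3 of the DG, with none above 4.92 TPM. Chrna2, a nicotinic subunit, had 3.62, 4.03 and 4.86 TPM in stress-low and 6.03, 5.50 and 4.93 TPM in stress-high DG libraries, which did not overlap (0.41, SE 0.18, unadjusted p = 0.0374, adjusted p = 0.999, edgeR). The DG controls, at 4.26 to 6.21 TPM, covered all 3 stress-high values and 1 of the stress-low values.

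Chat, which makes acetylcholine, had at most 22 expected counts in the BLA and 2 in the DG and did not pass the filter. Slc18a3, the vesicular acetylcholine transporter, was not found by that name in either region and has no values. Of the 7 genes of synthesis, transport, hydrolysis and anchoring, 4 passed the filter for BLA and 5 for DG libraries. Slc5a7, the choline transporter, had 1.23 to 3.77 TPM in the BLA. In the DG it had 5.08, 0.90 and 2.43 TPM in stress-low, 0.44, 0.47 and 0.56 TPM in stress-high and 1.06, 4.84, 0.56, 0.26 and 4.51 TPM in control libraries. The stress-high values lay below the stress-low values but within the control range, with a fold change from stress-low of -2.52 (SE 0.92, unadjusted p = 0.0156, adjusted p = 0.999, edgeR) and from control of -2.22 (SE 0.86, unadjusted p = 0.0217, adjusted p = 1.0, edgeR). Slc44a1, a choline transporter of many cell types, was higher in stress-low than in control BLA libraries by 0.17 (SE 0.07, unadjusted p = 0.0223, adjusted p = 1.0, edgeR).

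All 8 nicotinic accessory genes were tested in both regions. Lypd6b, a member of the family of nicotinic receptor-binding Ly6 proteins, was at 2.36 to 4.39 TPM in BLA controls, 3.68 to 6.15 TPM in stress-low and 4.19 to 4.98 TPM in stress-high animals, with overlap between controls and both stress groups. Its fold changes were 0.50 from control to stress-low (SE 0.17, unadjusted p = 0.0105, edgeR) and 0.50 to stress-high (SE 0.17, unadjusted p = 0.0112, edgeR), both with an adjusted p of 1.0 and with the same controls. Tmem35, a chaperone of nicotinic receptors, differed by 0.21 from control to stress-low in the DG (SE 0.08, unadjusted p = 0.0158, adjusted p = 0.709, edgeR). Of the 13 muscarinic signalling genes, all tested in both regions, Gna11, a Gq family alpha subunit, was the 1 at an unadjusted p under 0.05 (-0.15 from control to stress-low in the DG, SE 0.06, unadjusted p = 0.0267, adjusted p = 0.709, edgeR).

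**Figure D5:**
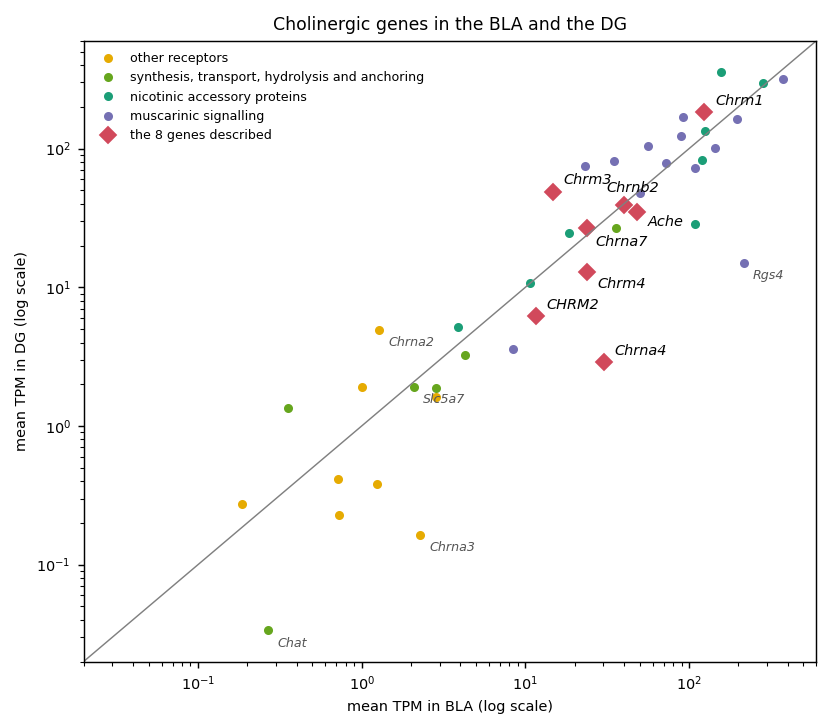
Mean TPM in the BLA (horizontal, log scale) and in the DG (vertical, log scale) of the 8 genes (red) and of genes of the 4 cholinergic lists with a mean above 0.02 TPM in both regions. The line marks equal levels. Chrna4 (30.1 and 2.88 TPM) lies far below the line and Chrm3 (14.7 and 49.0 TPM) above it.

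Across libraries, the 8 genes did not move as 1 block. Pearson's r of log2(TPM + 1) over the 28 pairs ran from -0.19 to 0.79 in the BLA (median 0.34, 12 libraries) and from -0.38 to 0.86 in the DG (median 0.25, 11 libraries). The points of each correlation share a library, with its depth and tissue makeup, and r is given as a description. The highest was that of Chrm4 and Ache in the DG (0.86), a pair with r = -0.19 in the BLA. Chrm1 and Chrna4 (0.79) and CHRM2 and Chrna7 (0.77) were highest in the BLA.

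The gene nearest in pattern was looked up for each of the 8 among named genes that averaged 1 TPM or more. In the BLA these were Cend1 for Chrm1 (r = 0.95), Klhl15 for CHRM2 (0.92), Cbx2 for Chrm3 (0.95), Nkain4 for Chrm4 (0.86), Pex6 for Chrna4 (0.96), Zbed4 for Chrna7 (0.94), Dhcr7 for Chrnb2 (0.97) and Sema6a for Ache (0.97), over 12 libraries and 12630 genes. In the DG they were Fkbp4 for Chrm1 (r = 0.97), Klf15 for CHRM2 (0.90), Cmc1 for Chrm3 (0.95), Cpne7 for Chrm4 (0.97), Sema5b for Chrna4 (0.90), Gpr63 for Chrna7 (0.94), Mtmr9 for Chrnb2 (0.92) and Slc9a4 for Ache (0.94), over 11 libraries and 12289 genes. No gene was nearest to the same receptor gene in both regions. Each r is the highest among all these genes over few libraries, so a high r can arise without any link between the genes. No chance level was computed.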

How the data were processed

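Left BLA and dorsal DG punches were sequenced as bulk poly-A RNA. Alignment by the authors used STAR 2.6.0a, the Rn5 assembly and Ensembl 75 genes. Quantification used RSEM 1.3.1, and the authors deposited, for each gene and library, an expected count (an estimate of reads that need not be whole), TPM and lengths, without a filter. FPKM columns were not used. Groups came from the labels, and 1 control per region, the farthest on PC1 of log2(TPM + 1), was left out, as the study also left out 1 library per region. The 8 genes and the gene and marker lists were chosen with earlier results of these data known.

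Expected counts were summed over identifiers of 1 name, rounded and fitted in edgeR 4.0.16 under R 4.3.3. TMM scaling was applied, genes were kept by filterByExpr (count of 10), and the quasi-likelihood model had 3 group means per region. The study's own EBSeq model was not run. TPM was tested by exact two-sided permutation over libraries (scipy). The pipeline was tested on simulated data. Named were the 8 genes, list genes with an unadjusted p under 0.05 in any comparison, Chat, Slc18a3 and Slc5a7, and the gene nearest in pattern to each of the 8. Alternatives were RLE size factors, DESeq2 1.42.0, no low-count filter, identifiers not summed, all libraries, only the 2 groups compared, a replicate block, animal number above 20 as a covariate, limma 3.58.1 on log2(TPM + 1) and log2(TPM + 0.1), with and without a mean TPM of at least 0.5, and leaving out each library. The difference between regions was also fitted with animals as random blocks, with all libraries, and in limma on log2(TPM + 1). Total counts of 11656439 to 22801247 per library gave the 8 genes a median standard error of 0.11 (BLA) and 0.14 (DG) on the log2 scale between the stress groups. Nothing in the labels tells of technical repeats; each library was taken as 1 animal. Promoter sequences came from RefSeq (GRCr8), and all 8 genes matched.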

Additional observations from a re-analysis of the deposited data

Results flagged for a closer look

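Among control libraries, a value whose gap to its nearest neighbour was a large share of the group's range was picked out with Dixon's criterion. With 32 such groups looked at (8 genes, 2 regions, with and without the control left out), chance alone gives about 1 in 20. Among the 5 DG controls used, CHRM2 in animal 17 was at 7.88 TPM where the others had 4.79 to 5.53, and Chrna4 in animal 32 was at 3.98 TPM where the others had 2.74 to 2.87. With the left-out DG control of animal 35 included, its Chrna7 of 9.90 TPM stood apart from 25.0 to 26.8 TPM in the other 5, and its Chrnb2 of 20.7 TPM from 38.0 to 43.3 TPM. Since that library was left out for its place on PC1, these values do not set Chrna7 and Chrnb2 apart from other genes. No BLA control was picked out for any of the 8 genes. The RNA quality of these libraries was not analysed here.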

How the results depend on the processing

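No gene of the 8 had an adjusted p under 0.05 in any setting, the lowest being 0.445. The number of the 8 at an unadjusted p under 0.05 changed as follows. In the BLA it went from 0 to 1 from control to stress-low with the replicate block (Chrm4, -0.21). In the DG, limma on log2(TPM + 1) without a filter gave 0 in place of 1 both between stress-low and stress-high and from control to stress-low, and identifiers not summed gave 0 from control to stress-low. Leaving out 1 library, the number ran from 0 to 1 in each BLA comparison and in both DG comparisons with controls, and from 1 to 2 between DG stress-low and stress-high. The same-numbered libraries did not deviate together (median correlation 0.00438 in the BLA and 0.0105 in the DG), so the replicate number was not taken as a pairing. Over all genes, DESeq2 gave 2, 2 and 3 calls at an adjusted p under 0.05 in the DG and 0 in the BLA, and limma gave up to 2 in the BLA, none of them among the 8. Of 968 fold changes under alternatives, 79 turned sign, each from a value that had no unadjusted p under 0.05 and was at most 0.12 in size, and 33 moved by at least their standard error. With animal number above 20 as a covariate, Chrm3 was at an unadjusted p under 0.05 in the BLA from control to stress-high (0.52, unadjusted p = 0.0373, edgeR) and in the DG from stress-low to stress-high (-0.42, unadjusted p = 0.0411, edgeR) and from control to stress-low (0.31, unadjusted p = 0.0453, edgeR). CHRM2 in the DG was then above 0.05 (unadjusted p = 0.161 and 0.0965, edgeR). So was Chrm4 in the BLA from control to stress-high (-0.28, unadjusted p = 0.0615, edgeR). The covariate does not vary within a stress group, so its effect rests on the few controls alone. In the BLA these were animals 14 and 17 against 27, 28, 32 and 35. Values under this covariate therefore cannot separate animal number from stress group. Among the values whose sign the same covariate turned were, in the BLA, CHRM2 from stress-low to stress-high (0.12) and Chrna7 from stress-low to stress-high (-0.05 to 0.20) and from control to stress-high (-0.02 to 0.15). In the DG, Chrm4 (0.05 to -0.28) and Ache (0.09 to -0.25) turned from stress-low to stress-high, as did Chrm4 from control to stress-low (-0.08 to 0.13), each by more than its standard error. It also turned the sign of Chrna7 from control to stress-low in the BLA (-0.047) and of Ache from control to stress-high in the DG (-0.012). Without 1 library, Chrm3 from stress-low to stress-high in the BLA ran from -0.034 to 0.17 and Chrna7 from control to stress-low in the BLA from -0.022 to 0.087. The cause of these shifts was not tested. Depth limits CHRM2 and Chrna4 in the DG most, at 67.0 to 133 and 37.0 to 86.0 expected counts.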
